A study of Mus musculus with 4 samples.

Results

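The 10 genes described here encode bone morphogenetic protein (BMP) ligands, BMP receptors, the inhibitory SMAD proteins and the Id proteins. They are *Bmp4*, *Bmp7*, *Bmpr1a*, *Bmpr1b*, *Smad6*, *Smad7*, *Id1*, *Id2*, *Id3* and *Id4*, and they were found by gene symbol among the 55573 Ensembl genes counted. RNA sequencing had been performed on tdTomato-positive cells of the mouse basal telencephalon at E16 after FACS (fluorescence-activated cell sorting), with insemination counted as E1. Every embryo carried *Hmx3-Cre*, active in *Hmx3*-expressing cells of the preoptic area (POA), and the tdTomato reporter that Cre switches on. Embryos of the *Dnmt1* WT group had wild-type *Dnmt1*. Those of the *Dnmt1* KO group carried the *Dnmt1 loxP2* allele, in which Cre removes exons 4 and 5 of this DNA methyltransferase gene. *Dnmt1* was thus targeted in the sorted lineage and not in the whole embryo. Cells were pooled from 12 WT and 6 KO embryos and gave 2 libraries per genotype. The study's methods describe technical duplicates of pools and the labels describe biological replicates, so SDs and p-values measure the spread between libraries, which may be technical.

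The libraries held between 8075102 and 9995968 counts. Levels are given in CPM, a gene's counts relative to the size of its library after scaling by TMM, a normalization that matches most genes between libraries. A limit of 3 counts corresponded to 0.294 to 0.372 CPM, and all such limits cover counting error only. In WT replicate 1, 8.66% of all counts fell on mitochondrial rRNA, against 1.51% to 2.32% in the other libraries. The WT libraries also differed more from each other than the KO libraries, with a biological coefficient of variation of 0.234 against 0.103. The targeted gene *Dnmt1* (chr9:20907209-20959888, minus strand, GRCm38) averaged 416 CPM (SD 43.4) over the 2 WT libraries and 282 CPM (SD 1.59) over the 2 KO libraries. The difference was -0.56 on the log2 scale (standard error 0.14, adjusted p = 0.0511 by edgeR), with both KO libraries below both WT libraries. Reads on the exons left in the deleted allele still count toward this gene. Reads were not examined by exon, and the source of the *Dnmt1* counts left in KO was not tested. With *Dnmt1* the direction was the same in 11 other fits, of which 8 passed the threshold. All 10 markers of GABAergic POA neurons, *Dlx1*, *Gad1*, *Gad2* and *Hmx3* among them, were counted in every group. They summed to 1417 to 1570 CPM in WT and 1212 to 1338 CPM in KO, and 0 of 10 passed edgeR's quasi-likelihood test. Of all tested genes, 0.570% were lower in KO at an adjusted p under 0.05. At an unadjusted p under 0.05 there were 2 of the 10, both lower in KO, against 8.01% of all tested genes. The median log2 fold change was -0.25 over the 10 markers, of which 1 was positive, and -0.03 over all tested genes. The KO values were lower without overlap for 5 markers and higher for 0, against 25.2% and 28.3% of all tested genes.

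BMP ligands bind type I and type II receptor kinases at the cell surface, and the active type I receptor phosphorylates SMAD proteins that enter the nucleus with Smad4. The Id genes are classic direct targets of these SMADs. Id proteins lack a DNA-binding domain and hold E proteins away from their DNA-binding partners, which keeps progenitors from differentiating into neurons. In the embryonic brain, BMP signals and Id proteins are known for favouring astrocytes over neurons and oligodendrocytes, and *Smad6* and *Smad7* are induced by the pathway and inhibit it.

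RefSeq promoter windows, the 250 bases before an annotated start, were read for 7 of the 10 genes (9 windows, GRCm38.p6). Those of *Id1*, *Smad7* and *Bmp7* are not shown. Both strands were searched for GGCGCC, the core of BMP response elements and its own reverse complement, for the SMAD element CAGAC (reverse complement GTCTG), and for the E-box CANNTG, at which E proteins bind. Matches of the first and second motif are printed with 10 bases on each side, where the window allows, to show which members held which element, with the motif in capitals and 5′ to 3′ along the gene's strand.
*Bmpr1b*, chr3:141982378-141982402, minus strand: tgtatttcttCAGACaagcctcata
*Bmpr1b*, chr3:141931819-141931838, minus strand: aaaaaGTCTGgcaggagaag
*Id3*, chr4:136143645-136143669, plus strand: tcctcggcgtCAGACcagcctaagg
*Id3*, chr4:136143744-136143768, plus strand: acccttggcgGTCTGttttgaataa
*Id2*, chr12:25096308-25096333, minus strand: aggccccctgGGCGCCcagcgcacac
*Id4*, chr13:48260958-48260983, plus strand: cgggttgcccGGCGCCccgccctcgc
*Bmpr1a*, chr14:34502729-34502754, minus strand: cgcgcgcgccGGCGCCtcttgctcgc
CAGAC thus stood in windows of *Bmpr1b* and *Id3*, and GGCGCC in those of *Id2*, *Id4* and *Bmpr1a*. Of all 32851 RefSeq windows of this length, 42.2% held CAGAC, 9.59% held GGCGCC and 66.2% held CANNTG. E-boxes were found in windows of *Bmp4*, *Bmpr1b* and *Id2*, and none of them overlapped a printed motif. *Smad6* held none of the 3 motifs. The annotated exons of *Id3* already covered its whole window, so that the RefSeq start lay downstream of the GENCODE start. Exons also covered 161 of the 250 bases of the *Id2* window, 141 of the *Bmpr1a* window and 103 of the third *Bmpr1b* window. All *Bmpr1b* windows lay inside the annotated gene, whose GENCODE start is at chr3:142169425 on the minus strand. They therefore stand before starts within the gene.

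The windows also differed in CG dinucleotides, the sites that Dnmt1 methylates. The first *Bmpr1b* window, which lies inside the annotated gene, held 1. The other windows of *Bmpr1b* held 5 each, against a median of 6 over all windows. The single window of *Id4* held 35, more than 97.0% of all windows. Both are printed in full to show a CG-poor and a CG-rich window of members, with the motif in capitals again. Methylation was not analysed here.
*Bmpr1b*, chr3:141982265-141982514, minus strand: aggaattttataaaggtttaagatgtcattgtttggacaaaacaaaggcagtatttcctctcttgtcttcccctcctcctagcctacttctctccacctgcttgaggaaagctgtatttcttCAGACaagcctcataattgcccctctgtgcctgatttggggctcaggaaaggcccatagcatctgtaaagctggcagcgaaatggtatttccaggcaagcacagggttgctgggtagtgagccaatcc
*Id4*, chr13:48260866-48261115, plus strand: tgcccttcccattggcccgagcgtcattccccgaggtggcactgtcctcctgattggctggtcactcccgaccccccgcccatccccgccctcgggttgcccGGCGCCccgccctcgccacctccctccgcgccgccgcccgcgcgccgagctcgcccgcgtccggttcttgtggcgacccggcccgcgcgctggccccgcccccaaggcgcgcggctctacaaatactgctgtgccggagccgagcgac
The windows of *Id2* and *Id3* held 18 each, that of *Smad6* 27, that of *Bmpr1a* 36 and that of *Bmp4* 11.

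Comparing *Dnmt1* KO with WT cells, the receptor gene *Bmpr1b* and the target gene *Id3* rose, by 6.25-fold and 2.88-fold. *Id1* and *Bmp7* stood higher in both KO libraries without passing the test, and *Bmp4* was counted in KO only. *Id2*, *Id4*, *Smad6*, *Smad7* and *Bmpr1a* did not pass the test. Of the 9 members that passed edgeR's filter on low counts, 2 were called higher and 0 lower at an adjusted p under 0.05 (edgeR's quasi-likelihood test, Benjamini-Hochberg over 16832 genes). Over all tested genes, 7.90% were called, 7.33% higher and 0.570% lower. At an unadjusted p under 0.05 there were 4 members, *Id1*, *Id3*, *Bmp7* and *Bmpr1b*, all higher in KO, against 22.7% of all tested genes in either direction and 8.01% lower. DESeq2 called the same number of members, 2 higher and 0 lower, against 8.87% of all genes (7.40% higher, 1.47% lower). Both KO libraries lay above both WT libraries for 7 of the 9 tested members and below for 0, where all genes gave 28.3% above and 25.2% below. The median log2 fold change was 0.44 over these 9 members and -0.03 over all tested genes. It was 0.54 with *Bmp4* added at the ratio of its KO mean to the WT limit of 3 counts. Without WT replicate 1, the library with the most mitochondrial rRNA, 4 members were called higher and 0 lower, where all genes gave 14.9% higher and 7.09% lower. Without WT replicate 2 there were 4 higher members and 2 lower ones, *Id4* and *Bmpr1a*, beside 12.8% and 12.7% of all genes. Without KO replicate 1 there was 1 higher member (4.19% of all genes higher, 0.119% lower), and without KO replicate 2 there were 2 (4.90% higher, 0.160% lower). In bulk samples, fewer cells of a type and less RNA per cell cannot be told apart.

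**Figure D1:**
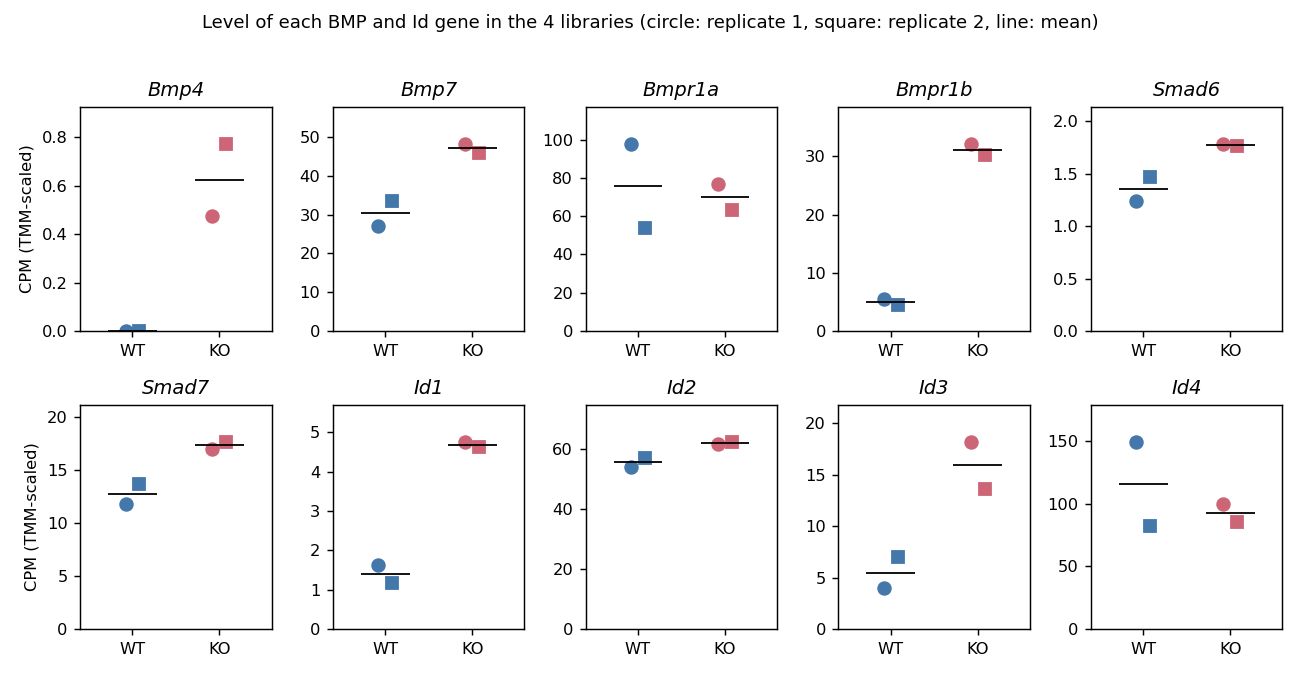
Level of each of the 10 BMP and Id genes in CPM (vertical axes from 0, scaled per gene) in the 2 WT and 2 KO libraries, with circles for replicate 1, squares for replicate 2 and a line at the mean. The groups overlap for *Bmpr1a* and *Id4*, where WT replicate 1 is the highest library, and *Bmpr1b* shows the widest gap, from 5.00 to 31.1 CPM on average.

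Many glial and mural markers were higher in KO as well. All 10 astrocyte markers rose in KO, and their summed level was 262 to 277 CPM in WT and 3668 to 3865 CPM in KO, led by the glutamate transporters *Slc1a2* and *Slc1a3* and the receptor *Fgfr3*, with *Gfap* at 0 in both WT libraries. Of 6 oligodendrocyte markers 5 rose, with a summed level of 128 to 152 CPM in WT and 541 to 560 CPM in KO. Mural cell markers rose for 5 of 7, at 48.7 to 53.3 CPM summed in WT and 314 to 322 CPM in KO, and *Acta2* was at 0 in WT. Markers of radial glia passed the test for 0 of 6 (3 at an unadjusted p under 0.05), with summed levels of 957 to 959 CPM in WT and 1080 to 1152 CPM in KO. Endothelial markers passed it for 0 of 5 tested of 7 listed (3 at an unadjusted p under 0.05, in both directions). They summed to 16.4 to 17.5 CPM in WT and 17.1 to 19.4 CPM in KO. Microglial markers passed the test for 1 of 6 tested of 7 listed (5 at an unadjusted p under 0.05). Their sum was 26.6 to 30.4 CPM in WT and 51.5 to 58.4 CPM in KO. Oligodendrocyte precursor markers rose for 1 of 5 (4 at an unadjusted p under 0.05), at 1283 to 1339 CPM in WT and 1631 to 1707 CPM in KO. Fibroblast markers passed the test for 0 of 2 tested (1 at an unadjusted p under 0.05, higher in KO). Erythroid markers passed it for 0 of 3 tested (2 at an unadjusted p under 0.05, both lower in KO). They summed to 13.7 and 24.3 CPM in WT and 11.8 and 11.2 CPM in KO. Of 3 tested choroid plexus markers 1 fell, *Ttr*, from 40.8 and 55.3 CPM in WT to 0.951 and 1.10 CPM in KO. Of 4 glutamatergic markers 1 fell, *Neurod6*, with 3 of the list at an unadjusted p under 0.05. General neuron markers fell for 1 of 7 (5 at an unadjusted p under 0.05) and summed to 5323 to 5847 CPM in WT and 3988 to 4037 CPM in KO. These counts are from edgeR's quasi-likelihood test at an adjusted p under 0.05, and the part of these cell types in the changes of the BMP and Id genes was not tested.

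**Figure D2:**
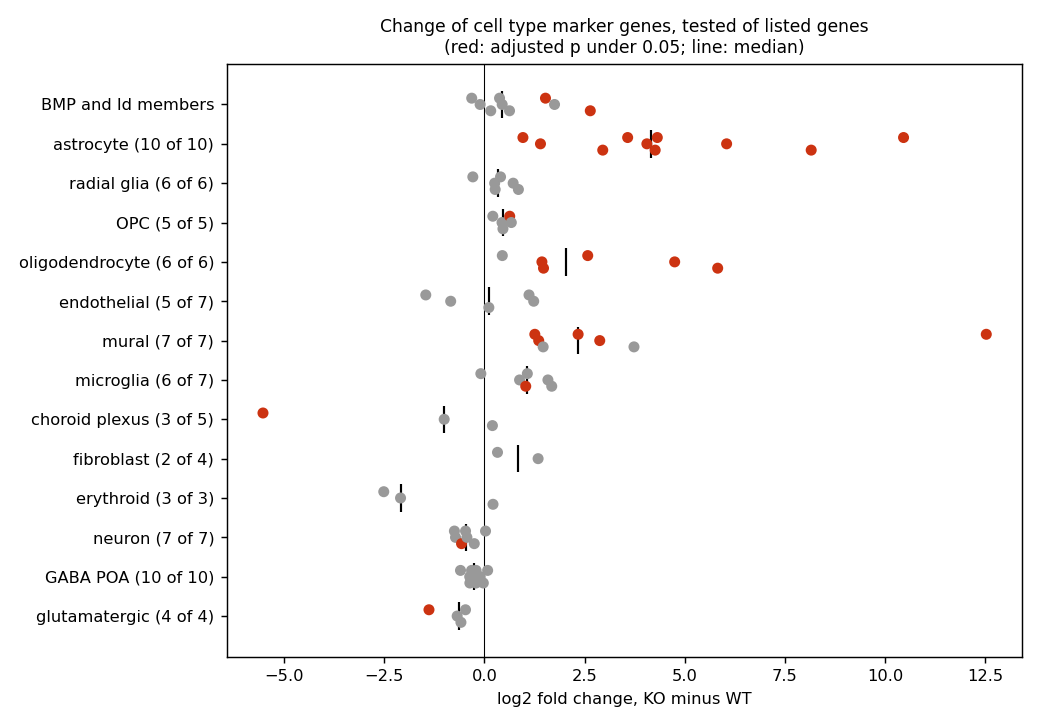
Log2 fold change (KO minus WT, horizontal axis) of each tested gene in 13 cell type marker lists and of the 9 tested BMP and Id genes (top), with red points for an adjusted p under 0.05 and a line at each list's median. The astrocyte, oligodendrocyte and mural lists lie to the right, with medians of 4.16, 2.03 and 2.34, and the BMP and Id genes spread from -0.32 to 2.64.

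The ligand *Bmp7* (ENSMUSG00000008999, chr2:172868012-172940321, minus strand, GRCm38), which is made by several cell types of the developing forebrain, was counted with 219 and 343 reads in WT against 405 and 417 in KO. In CPM these were 27.2 and 33.6 in WT and 48.1 and 45.9 in KO, so that both KO libraries lay above both WT libraries. The log2 fold change was 0.63 (standard error 0.17, 95% interval 0.23 to 1.03), which did not pass the test (edgeR adjusted p = 0.0715). *Bmp7* passed in 5 of 11 other fits, with adjusted p from 0.00874 to 0.0951, and in 2 of 4 fits with a library left out, those without a WT library. *Bmp4* (ENSMUSG00000021835, chr14:46383520-46390669, minus strand), a ligand best known from the dorsal midline of the telencephalon, was not counted in WT (0 reads in each library) and had 4 and 7 reads in KO. It did not pass the filter on low counts. Its KO mean of 0.623 CPM was 1.87 times the WT limit of 3 counts per library. This ratio leaves out the counting error of the KO reads and is not a lower bound. In the fit without a filter, the adjusted p of *Bmp4* was 0.247 (edgeR). At this depth *Bmp4* was not detectable in WT. An antisense gene, *Gm15217*, shares 3.96% of its exon bases, and reads on the shared bases cannot be told apart without the strand.

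Of the type I receptor genes, *Bmpr1b* (ENSMUSG00000052430, chr3:141837136-142169425, minus strand) was counted with 45 reads in each WT library against 270 and 274 reads in KO. Its level was 5.59 and 4.41 CPM in WT and 32.1 and 30.2 CPM in KO. The groups were far apart, and the libraries of each genotype lay close together. *Bmpr1b* rose by 2.64 on the log2 scale (standard error 0.24, 95% interval 2.10 to 3.19, edgeR adjusted p = 0.000307), more than 96.2% of all tested genes. It was called in all 11 other fits and without each of the 4 libraries in turn, with log2 fold changes from 2.48 to 2.81. *Bmpr1a* (ENSMUSG00000021796, chr14:34410734-34503341, minus strand), the closely related receptor that is broadly expressed in neural progenitors, had WT counts of 786 and 547 and KO counts of 646 and 574. At 97.6 and 53.6 CPM in WT and 76.8 and 63.2 CPM in KO, both KO values fell inside the WT range. The log2 fold change was -0.11 (95% interval -0.72 to 0.50, edgeR adjusted p = 0.852). Without WT replicate 2 it was -0.48 (edgeR adjusted p = 0.00611) and without WT replicate 1 it was 0.38 (edgeR adjusted p = 0.0912). A change of *Bmpr1a* in either direction was therefore not resolved, and 4.57% of its exon bases are shared with an antisense gene, *Gm17110*. The handling of strand during counting is not given in the sources used here.

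Per kilobase of exon, *Bmpr1b* made up 5.75% and 8.06% of the summed level of *Bmpr1a* and *Bmpr1b* in the WT libraries and 30.8% and 33.7% in the KO libraries. These shares are taken within a library, and they did not overlap between genotypes. The sum was 16.3 and 9.18 CPM per kb in WT and 17.5 and 15.0 CPM per kb in KO, where the KO library with the lower sum lay below the higher WT library.

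The inhibitory SMAD genes *Smad6* and *Smad7* encode proteins that block the type I receptors or compete with Smad4 for the SMADs that these receptors phosphorylate. *Smad7* (ENSMUSG00000025880, chr18:75367529-75395935, plus strand) was counted with 95 and 139 reads in WT against 143 and 160 in KO. Its level was 11.8 and 13.6 CPM in WT and 17.0 and 17.6 CPM in KO, and the KO libraries were both higher than either WT library. The log2 fold change of 0.44 (standard error 0.23, 95% interval -0.08 to 0.97) did not pass the test (edgeR adjusted p = 0.288). *Smad6* (ENSMUSG00000036867, chr9:63953076-64022059, minus strand) had only 10 and 15 reads in WT against 15 and 16 in KO. At 1.24 and 1.47 CPM in WT and 1.78 and 1.76 CPM in KO, it was too low for a narrow estimate, and the 95% interval of its log2 fold change of 0.38 ran from -0.87 to 1.63 (edgeR adjusted p = 0.725). The ratio of *Smad6* to *Smad7* per kilobase was 0.148 to 0.152 in 3 libraries and 0.141 in KO replicate 2.

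**Figure D3:**
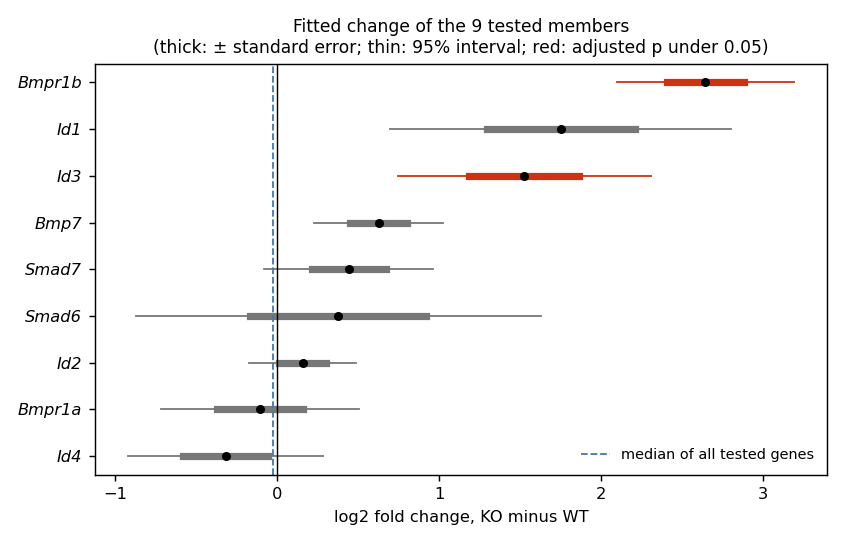
Fitted log2 fold change (KO minus WT, horizontal axis) of the 9 tested BMP and Id genes, with the standard error as a thick bar, the 95% interval as a thin bar, red for an adjusted p under 0.05 and a dashed line at the median of all tested genes, -0.03. *Bmpr1b* and *Id3* are called, and the intervals of *Id1* (0.70 to 2.80) and *Bmp7* (0.23 to 1.03) lie above 0 without a call.

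Among the Id genes, *Id3* (ENSMUSG00000007872, chr4:136143497-136145755, plus strand) was counted with 32 and 71 reads in WT against 153 and 124 reads in KO. Its level was 3.97 and 6.96 CPM in WT and 18.2 and 13.7 CPM in KO. Both groups were spread, and every KO library still lay above every WT library. *Id3* rose by 1.52 on the log2 scale (standard error 0.34, 95% interval 0.74 to 2.31, edgeR adjusted p = 0.0307). It was called in all 11 other fits, and the call was lost without KO replicate 1, the higher KO library (log2 fold change 1.31, edgeR adjusted p = 0.21). *Id1* (ENSMUSG00000042745, chr2:152736251-152737410, plus strand) had 13 and 12 reads in WT against 40 and 42 reads in KO, or 1.61 and 1.18 CPM against 4.76 and 4.63 CPM. The libraries of each genotype were close together and the groups did not overlap, at counts that leave a wide interval. Its log2 fold change of 1.75 (standard error 0.46, 95% interval 0.70 to 2.80) exceeded that of *Id3* and narrowly missed the threshold (edgeR adjusted p = 0.0579). It passed in 8 of 11 other fits, with adjusted p from 0.0125 to 0.0995, and when either WT library was left out, but not without KO replicate 1 (log2 fold change 1.73, edgeR adjusted p = 0.347) or KO replicate 2 (1.78, edgeR adjusted p = 0.314), where the fold change was nearly the same.

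*Id2* and *Id4*, the more abundant Id genes per kilobase, did not pass the test. *Id2* (ENSMUSG00000020644, chr12:25093799-25097140, minus strand), which is expressed in many neural lineages, had WT counts of 437 and 582 and KO counts of 519 and 567. These were 54.2 and 57.0 CPM in WT and 61.7 and 62.4 CPM in KO, close together in every library although the groups did not overlap. The 95% interval of its log2 fold change of 0.16 ran from -0.17 to 0.49 (edgeR adjusted p = 0.556). *Id4* (ENSMUSG00000021379, chr13:48261228-48266026, plus strand), a gene of neural and glial precursors, was counted with 1201 and 835 reads in WT against 838 and 776 reads in KO. At 149 and 81.8 CPM in WT and 99.6 and 85.5 CPM in KO, WT replicate 1 stood apart and the other libraries were alike. The log2 fold change was -0.32 (95% interval -0.92 to 0.29, edgeR adjusted p = 0.514). It was -0.69 without WT replicate 2 (edgeR adjusted p = 2.73e-05) and 0.17 without WT replicate 1 (edgeR adjusted p = 0.467), so that the sign of the *Id4* difference changed with the WT library left out. Antisense genes share 2.13% (*A330033J07Rik*) and 4.44% (*Gm49291*) of the exon bases of *Id4*.

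Per kilobase of exon, the summed level of the 4 Id genes was 64.6 and 49.5 CPM per kb in WT and 65.5 and 59.4 CPM per kb in KO, and these ranges overlapped. Within this sum, *Id1* and *Id3* together made up 5.59% and 9.89% in the WT libraries and 21.8% and 19.5% in the KO libraries. The share of *Id4* was 60.0% and 42.9% in WT and 39.5% and 37.4% in KO, and that of *Id2* was 34.4% and 47.2% in WT and 38.7% and 43.1% in KO. The joint share of *Id1* and *Id3* was thus higher in both KO libraries and that of *Id4* lower, while that of *Id2* overlapped. Shares of a sum are bound to each other, so that a higher share of some genes lowers that of others. The level of *Id4* itself overlapped, at 38.7 and 21.3 CPM per kb in WT and 25.9 and 22.2 CPM per kb in KO.

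**Figure D4:**
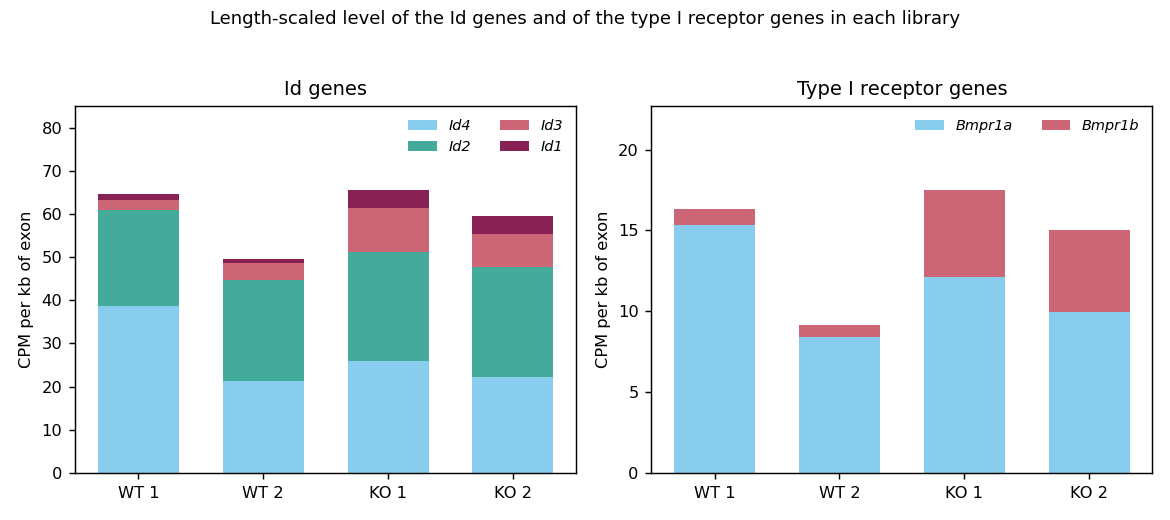
Level in CPM per kb of exon (vertical axes from 0) of the 4 Id genes (left) and of *Bmpr1a* and *Bmpr1b* (right), stacked for each of the 4 libraries. *Id1* and *Id3* fill 19.5% to 21.8% of the stack in KO and 5.59% to 9.89% in WT, and *Bmpr1b* fills 30.8% to 33.7% in KO and 5.75% to 8.06% in WT.

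In order of length-scaled level, the WT libraries gave *Id4* (30.0 CPM per kb), *Id2* (22.8), *Bmpr1a* (11.9), *Bmp7* (7.56), *Id3* (3.05), *Smad7* (2.81), *Id1* (1.20), *Bmpr1b* (0.838), *Smad6* (0.423) and *Bmp4* (0). The neighbours *Id4* and *Id2*, and *Id3* and *Smad7*, overlapped between libraries. In KO, *Id2* (25.5 CPM per kb) and *Id4* (24.0) led and overlapped, followed by *Bmp7* (11.7), *Bmpr1a* (11.0) and *Id3* (8.89), each of which overlapped the next. *Bmpr1b* (5.22 CPM per kb), *Id1* (4.04), *Smad7* (3.83), *Smad6* (0.553) and *Bmp4* (0.277) came after them without overlap.

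The genes whose pattern over the 4 libraries was nearest to each Id gene were found by the Euclidean distance of log2(CPM + 0.5) values centred on their mean, among 8139 genes with at least 20 CPM on average. With 4 libraries this describes the pattern only. Nearest to *Id1* were *Tnfrsf19* (distance 0.038), *Chst2* (0.107) and *Acsl3* (0.125), all higher in both KO libraries. For *Id3* they were *Abcc9* (0.284), *Gm973* (0.297) and *Cpt1a* (0.334), of which *Abcc9*, a potassium channel regulator of pericytes, also stands in the mural marker list. *Abcc9* had 11.4 and 17.2 CPM in WT and 37.3 and 31.7 CPM in KO. The nearest to *Id2* were *Zswim8* (0.016), *Heatr5a* (0.021) and *Lamp1* (0.027). *Id4* was nearest to *Mbtd1* (0.030), *Ccnh* (0.034) and *Rock1* (0.035), which had their highest level in WT replicate 1 as well.

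Of 59 other genes of the BMP pathway, 42 passed the filter, and 4 were called higher and 1 lower (edgeR's quasi-likelihood test, adjusted p under 0.05), against the same 7.33% and 0.570% of all tested genes. Both KO libraries lay above both WT libraries for 16 of the 42 and below for 14, against 28.3% and 25.2% of all tested genes. The median log2 fold change was -0.02. The higher genes were *Chrdl1*, *Hes1*, *Tob2* and *Rgma*, and the lower was *Skil*.

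Among the antagonists, a list of secreted proteins and the membrane pseudoreceptor *Bambi*, 1 of 12 tested of 17 listed was called. This was *Chrdl1*, chordin-like 1, which binds BMPs outside the cell, at 7.08 and 4.80 CPM in WT and 25.4 and 25.1 CPM in KO. The groups were well separated, and *Chrdl1* rose by 2.10 on the log2 scale (standard error 0.26, edgeR adjusted p = 0.00185), with a call in all 11 other fits and without each library. The most abundant antagonist, *Twsg1* (twisted gastrulation), stood at 79.3 and 75.5 CPM in WT and 59.2 and 48.2 CPM in KO and did not pass the test (log2 fold change -0.53, edgeR adjusted p = 0.093).

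Of the 9 other receptors and co-receptors, *Rgma*, a membrane-anchored BMP co-receptor also known in axon guidance, was called. It had 62.1 and 50.2 CPM in WT and 100.0 and 126.9 CPM in KO and rose by 1.02 on the log2 scale (standard error 0.18, edgeR adjusted p = 0.0113). Without KO replicate 2, the higher library, the call of *Rgma* was lost (0.84, edgeR adjusted p = 0.0886). *Neo1*, neogenin, to which Rgma binds, was the most abundant of them, at 380.0 and 372 CPM in WT and 329 and 333 CPM in KO, and did not pass the test (log2 fold change -0.18, edgeR adjusted p = 0.445).

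Intracellular modulators gave a call in each direction among 7 tested. *Tob2*, an antiproliferative protein of a family that binds SMADs, had 17.8 and 21.0 CPM in WT and 37.8 and 43.3 CPM in KO and rose by 1.06 on the log2 scale (edgeR adjusted p = 0.00995). *Skil*, which encodes the SMAD co-repressor SnoN, had 121 and 118 CPM in WT and 67.1 and 68.1 CPM in KO and fell by 0.82 on the log2 scale (standard error 0.14, edgeR adjusted p = 0.00906). The libraries of each genotype were nearly equal for *Skil*, and the groups did not overlap for either gene. The call of *Skil* was lost without KO replicate 1 (log2 fold change -0.81, edgeR adjusted p = 0.166) and without KO replicate 2 (-0.83, edgeR adjusted p = 0.137), at nearly the same fold change. For *Tob2* it was lost without KO replicate 2 (0.97, edgeR adjusted p = 0.106). *Nedd4l*, a ubiquitin ligase and the most abundant of the list, gave -0.13 (edgeR adjusted p = 0.6).

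Of 5 other target genes only *Hes1* and *Hey1* were tested. *Hes1*, a transcriptional repressor best known as a Notch target, had 6.08 and 5.49 CPM in WT and 14.3 and 19.5 CPM in KO. Every KO library exceeded every WT library, and *Hes1* rose by 1.55 on the log2 scale (standard error 0.28, edgeR adjusted p = 0.0126). The call was lost without KO replicate 2, the higher KO library (1.31, edgeR adjusted p = 0.116).

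The remaining lists held no call under edgeR's quasi-likelihood test. Of 14 other ligands 5 were tested (1 at an unadjusted p under 0.05), *Bmp10* and *Gdf6* had 0 counts in every library, and the most abundant was *Gdf11*, a family member that signals mainly through activin-type SMADs, at 54.6 CPM in WT and 48.0 CPM in KO on average. Of the SMADs that carry the signal, 4 of 4 were tested and 2 had an unadjusted p under 0.05, in opposite directions. *Smad5* was the most abundant, at 182 and 162 CPM in WT and 138 and 144 CPM in KO (log2 fold change -0.28, edgeR adjusted p = 0.276). The E proteins, the partners of Id proteins, had log2 fold changes from -0.12 to -0.01 with 0 of 3 at an unadjusted p under 0.05, and *Tcf4*, the most abundant, gave -0.06 (95% interval -0.42 to 0.29).

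**Figure D5:**
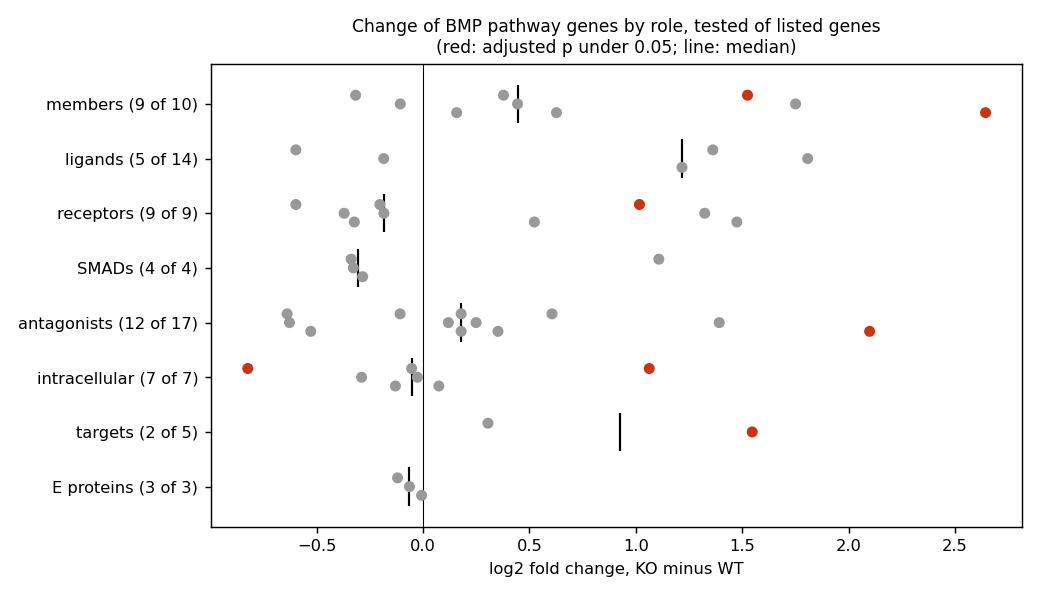
Log2 fold change (KO minus WT, horizontal axis) of the tested genes of each role in the BMP pathway, with the number tested of the number listed on the vertical axis, red points for an adjusted p under 0.05 and a line at the median. Called genes are spread over the antagonist, receptor, intracellular and target lists, from *Skil* at -0.82 to *Chrdl1* at 2.10, and the E proteins lie near 0.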

How the data were processed

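As deposited, the files held raw counts of reads on Ensembl genes for 4 libraries of FACS-enriched tdTomato-positive cells, 2 per genotype. The submitters' processing notes name CASAVA 1.8.2, STAR 2.5.2a, featureCounts 1.5.0-p1 and mm10. The annotation release and strand handling are not given in the sources used here. Genotypes were taken from the labels.

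Of 55573 gene identifiers, 55480 were matched to GENCODE M21 (GRCm38) for symbols, positions and exon lengths, and all 10 members were found. Counts were filtered with filterByExpr, scaled by TMM and compared between genotypes with edgeR's quasi-likelihood test (R 4.3.3 with edgeR 4.0.16 and limma 3.58.1) over 16832 genes, with Benjamini-Hochberg adjustment and a threshold of 0.05. CPM values used TMM-scaled library sizes. Intervals are 95% intervals, and standard errors came from the test statistic. Levels per kb were divided by the exon length. Fold changes depend on the assumption of TMM that most genes do not differ.

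Named genes are the members, *Dnmt1*, called pathway genes, the most abundant gene of each role, and the 3 genes nearest to each Id gene. Markers are named where abundant, absent or called, and *Hmx3* as the gene that drives Cre. A few others, such as *Hey1*, *Bambi*, *Bmp10* and *Gdf6*, are named to describe the lists or exon overlaps. The members and lists were chosen with earlier results of these data known. Promoter windows came from RefSeq (GRCm38.p6). Alternatives were DESeq2 1.42.0, limma-voom, other scalings and filters, the replicate block, removal of mitochondrial and rRNA genes, a length and GC correction, and each library left out. The correction was changed to a robust fit centred on the median after a least-squares version had shifted the median of all genes.

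In simulated counts, 200 genes were given a log2 change of 2, and 16414 genes, 199 of these among them, passed the filter. edgeR recovered 97.0% of the 200 with 4.0% of calls false, and DESeq2 86.5% with 4.9%. The simulation gave both genotypes the same spread and changed only genes above a minimum expected count. These rates may therefore differ for members with few counts. They may also differ for the real libraries, whose biological coefficients of variation were 0.234 (WT) and 0.103 (KO). The libraries of a genotype differed beyond sampling noise, with a chi-square of 57.2 (WT) and 4.28 (KO) per degree of freedom, so that they were not copies of each other. This does not tell technical from biological replicates.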

Additional observations from a re-analysis of the deposited data

How the results depend on the processing

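Across 11 other fits and 4 leave-outs of a library, 109 of the 135 values of single members kept their direction and side of the threshold, 19 newly passed it, 1 lost it and 6 changed sign. *Bmpr1a* changed sign with library size only (0.028), the length and GC correction (0.13) and that correction with the block (0.14). With a library left out, its log2 fold change ran from -0.48 to 0.38, and that of *Id4* from -0.69 to 0.17. Members higher in KO were 2, and 4 with library size only, no filter, the replicate block, the length and GC correction, or both together, 3 with upper quartile scaling, at least 10 counts in every library or mitochondrial and rRNA genes removed, and 1 to 4 when a library was left out. Members lower in KO were 0, and 0 to 2 when a library was left out. Other pathway genes higher in KO were 4, then 7 with library size only, no filter or the length and GC correction, 9 with that correction and the block, 6 with the block alone, and 1 to 10 when a library was left out. Those lower were 1, then 2 with no filter or the length and GC correction, 3 with the block, 4 with both, and 0 to 9 when a library was left out. Of all tested genes 1233 were higher, 1690 with library size only, 1790 with no filter (of 30006 genes tested), 1625 with the block, 1388 with upper quartile scaling, 831 with at least 10 counts in every library (of 14294), 1311 with mitochondrial and rRNA genes removed, 1925 with the length and GC correction, 2115 with the block added, and 706 to 2514 when a library was left out. There were 96 lower genes, 573 with no filter, 52 with at least 10 counts in every library, 247 with DESeq2, 619 with the block, 816 with the length and GC correction, 1055 with both, and 20 to 2144 when a library was left out. The share of calls that were higher was 92.8%, 83.5% with DESeq2, 75.8% with no filter, 72.4% with the block, 70.2% with the correction and 66.7% with both. It was 67.8% without WT replicate 1, 50.1% without WT replicate 2, 97.2% without KO replicate 1 and 96.8% without KO replicate 2. With library size only, the median of all genes moved from -0.03 to 0.08. The cause of these shifts was not tested.

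With the replicate number as a block, *Id1* (log2 fold change 1.76, edgeR adjusted p = 0.0441) and *Bmp7* (0.63, edgeR adjusted p = 0.0266) were called beside *Bmpr1b* and *Id3*, and calls over all genes went from 1329 to 2244. Libraries with the same number deviated together with a correlation of 0.159 over genes, and with 2 pairs the numbers do not establish that the libraries were paired. Leaving out a library left 1 in its genotype, which was then assumed to vary like the other. edgeR's prior degrees of freedom rose from 6.05 to 12.5 under the block. Counts limit *Id1*, *Smad6* and *Bmp4* most.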
